A study of Arabidopsis thaliana with 48 samples.

Results

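Leaf transcripts of Arabidopsis thaliana of the ecotype Columbia were compared between a pair of harvests of plants moved from low to high light, labelled step day 0.6 and step day 2.57. Both groups carried the same treatment, a step in photon flux density from 100 to 700 µmol per square metre per second, shortened here to light 100 and light 700, and they differ only in the labelled day. The comparison holds 8 of the 48 deposited samples, which are 4 of the 24 replicates once the lanes of each library are summed. The samples were chosen by their labels, with 2 replicates in each group. The other groups of the series, used here as reference levels, were grown throughout at light 100, 250, 450 or 700 (labelled day 0.583) or were taken at 6 times of day at light 250. All plants had warm days and cold nights, and RNA extracted from separate rosettes was pooled into the replicates. The labels do not say from what moment the days are counted, and their protocol describes a step of less than a day, so 0.6 and 2.57 are used as names. The time after the step and the hour of harvest cannot be told apart.

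A leaf moved into stronger light receives more energy than its photosynthetic apparatus can use at once. It is known to answer with early protective transcripts, and later with anthocyanins, red pigments that absorb part of the light, and with a rebuilt photosynthetic apparatus. Anthocyanins are made from phenylalanine through the general phenylpropanoid and flavonoid pathways, whose last steps are switched on by a complex of MYB, bHLH and WD40 proteins. The circadian clock, a loop of morning MYB factors and evening repressors, sets many leaf transcripts by the hour of the day.

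Total counts of the step replicates ran from 31740867 to 33818213, and 22396 to 22628 loci had a count. A column of step day 2.57 whose name repeats replicate 1 was assigned to replicate 2, whose other lane it matched with a variance ratio of 1.99, against 9.76 to 9.78 with replicate 1. Leaf mesophyll markers summed to 34944 and 43014 CPM (counts relative to library size) at day 0.6 and to 44809 and 44748 at day 2.57. Phloem markers summed to 141 and 147 CPM at day 0.6 and to 183 and 216 at day 2.57. Guard cell and epidermis markers summed to 66.0 and 60.7 CPM and then to 70.1 and 57.9. Markers of flower, seed and root summed to at most 1.65 CPM in every step replicate. The meristem markers summed to 3.18 CPM in day 0.6 replicate 1 and to 0.206 to 0.464 in the other step replicates. In a principal component analysis the groups separated on the first component (60.2% of the variance), and the second (22.5%) set day 0.6 replicate 1 at 29.7 and replicate 2 at -23.9. The labels tell no more of how the pools differ, so p-values measure the spread between these pools. In such bulk RNA, fewer cells of a type and less RNA per cell cannot be told apart.

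Of 19998 loci tested, 1586 (7.93%) differed between the days by edgeR's quasi-likelihood test, at a p under 0.05 after adjustment across all of them (Benjamini-Hochberg). Transcripts of 657 loci (3.29%) were higher at day 2.57 and those of 929 (4.65%) were lower. The median log2 change, day 2.57 minus day 0.6, was 0.0014 over all loci tested, 0.78 over the called rises and -0.81 over the called falls. The replicates of the groups did not overlap at any of the 1586 called loci, nor at 55.2% of all loci tested. Leaving out a replicate moved the count to between 844 (without day 2.57 replicate 2) and 4006 (without day 0.6 replicate 1). It was 1068 without day 2.57 replicate 1 and 1974 without day 0.6 replicate 2.

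Across 44 lists of genes that fit a light-treated leaf, 586 loci were tested and 147 passed (25.1%, beside 7.93% over all loci tested). The lists were chosen with earlier results of these data known, so the higher share is not a finding about them. The lists with the highest share of rises were the late anthocyanin genes (10 of 10), the PDF1 defensins and ethylene-jasmonate outputs (7 of 10) and the early flavonoid genes (6 of 9). Falls were most frequent among CBF and cold-regulated genes (11 of 15) and abscisic acid genes (8 of 14). No locus of the Calvin cycle (17 tested), tocopherol (8), indolic glucosinolate (13) or cuticular wax (10) lists passed. Lists this small would hold few calls at the 7.93% over all loci tested. When the 4 groups of the step table shared the spread, 5 Calvin cycle and 4 tocopherol loci rose.

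**Figure D1:**
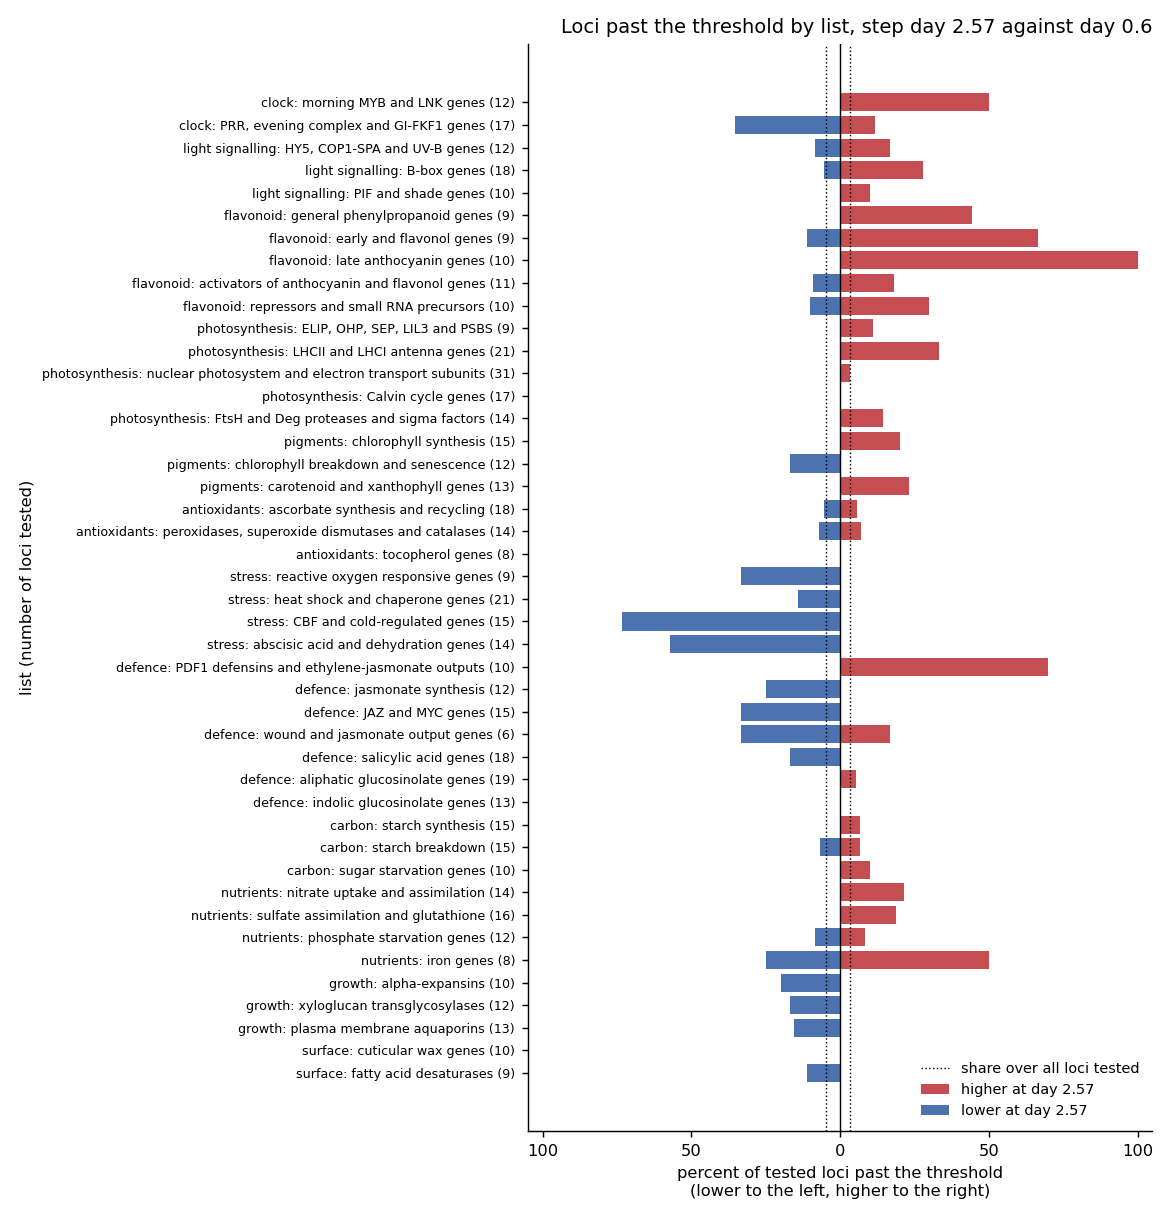
Share of the tested loci of each list that passed the threshold, in percent, with loci higher at day 2.57 drawn to the right and loci lower drawn to the left; the number tested stands in parentheses and dotted lines mark the shares over all loci tested (3.29% higher, 4.65% lower). The late anthocyanin list reaches 100% to the right and the CBF and cold-regulated list 73.3% to the left.

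Transcripts of the anthocyanin pathway were the most complete group of rises. DFR (AT5G42800), whose enzyme reduces dihydroflavonols on the way to anthocyanidins, stood at 60.7 and 31.9 CPM in the day 0.6 replicates and at 541 and 766 CPM at day 2.57. LDOX (AT4G22880), the next enzyme, stood at 60.7 and 43.6 CPM and then at 488 and 688 CPM. Every day 2.57 replicate lay far above both day 0.6 replicates at these loci. The log2 changes were 3.80 ± 0.28 (SE) for DFR and 3.48 ± 0.22 for LDOX, with adjusted p 2.03e-05 and 8.51e-06 by edgeR's quasi-likelihood test. LDOX has a near-identical copy (AT4G22870, 96.2% identity over the matched stretch), so reads of the pair may be shared.

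TT7 (AT5G07990), the flavonoid 3'-hydroxylase that adds a hydroxyl group to the B ring, had the largest rise of the flavonoid genes. It went from 34.4 and 21.3 CPM to 493 and 700 CPM, a log2 change of 4.40 ± 0.26 (SE; edgeR quasi-likelihood, adjusted p 6.80e-06). The decorating enzymes moved with them. AT4G14090, annotated as a UDP-glycosyltransferase, rose by 3.07 on the log2 scale, and AT5MAT (AT3G29590), which attaches malonyl groups to anthocyanins, by 2.86. Over the 10 late genes the log2 changes ran from 0.99 to 3.80 with a median of 2.81, and all 10 passed in each fit that left out a replicate.

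Of 9 early and flavonol genes, which include TT7, 6 rose and 1 fell, with a median log2 change of 1.5. CHS (AT5G13930), chalcone synthase and the entry into the flavonoids, was at 710 and 849 CPM at day 0.6 and at 1997 and 2729 CPM at day 2.57, a log2 change of 1.58 ± 0.19 (SE). F3H (AT3G51240) and CHIL (AT5G05270) rose by 1.58 and 1.81. FLS1 (AT5G08640), flavonol synthase, was not called, with a log2 difference of -0.10, and UGT78D3 (AT5G17030), a flavonol glycosyltransferase, fell by 1.05 on the log2 scale but did not pass when the 4 groups of the step table shared the spread. Both were picked out after their values were seen, and flavonol genes were not tested as a group. Upstream, PAL2 (AT3G53260) and PAL1 (AT2G37040), which turn phenylalanine into cinnamate, rose by 2.6 ± 0.17 and 1.76 ± 0.16 on the log2 scale.

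The regulators did not rise as a group. Of 11 activators tested, 2 rose, 1 fell and the median log2 change was 0.08. TT8 (AT4G09820), the bHLH partner of the MYB factors, went from 7.47 and 4.68 CPM to 31.0 and 45.8 CPM, a log2 change of 2.63 ± 0.23 (SE). MYB75 (AT1G56650), the MYB activator also called PAP1, stood at 108 and 117 CPM at day 0.6 and at 96.6 and 122 CPM at day 2.57, so the groups overlapped and the change of -0.06 ± 0.15 did not pass. MYB90 (AT1G66390) stood at 19.9 and 20.8 and then at 26.6 and 56.5 CPM. Its log2 change of 1.01 passed with all replicates and was 0.38 without day 2.57 replicate 2, where it did not pass. MYB75 and MYB90 each match MYB114 with 93.2% and 92.5% identity, so reads may be shared among them. MYB111 (AT5G49330), an activator of flavonol synthesis, fell by 0.74 (SE 0.20). It did not pass on lane 2 alone, without day 2.57 replicate 1, or without day 0.6 replicate 2, where the change was -0.38.

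Levels in the groups grown at constant light place these values. DFR averaged 3.19 CPM at light 100 and 404 CPM at light 700, and TT7 1.98 and 173 CPM. Mean levels at step day 2.57 lay above those of light 700 for PAL1, PAL2, CHS, CHIL, F3H, TT7, DFR, LDOX, AT4G14090 and AT5MAT, whereas day 0.6 lay between light 100 and light 700 for DFR, LDOX, TT7, AT4G14090 and AT5MAT. CHS at day 0.6 lay below the light 700 mean of 965 CPM, and PAL1 at day 0.6, at 216 and 226 CPM, lay beside its light 700 mean of 217 CPM. MYB75 averaged 54.3 CPM at light 700, below all 4 step replicates. These levels come from 1 common scaling of all replicates and were not tested against the step groups.

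**Figure D2:**
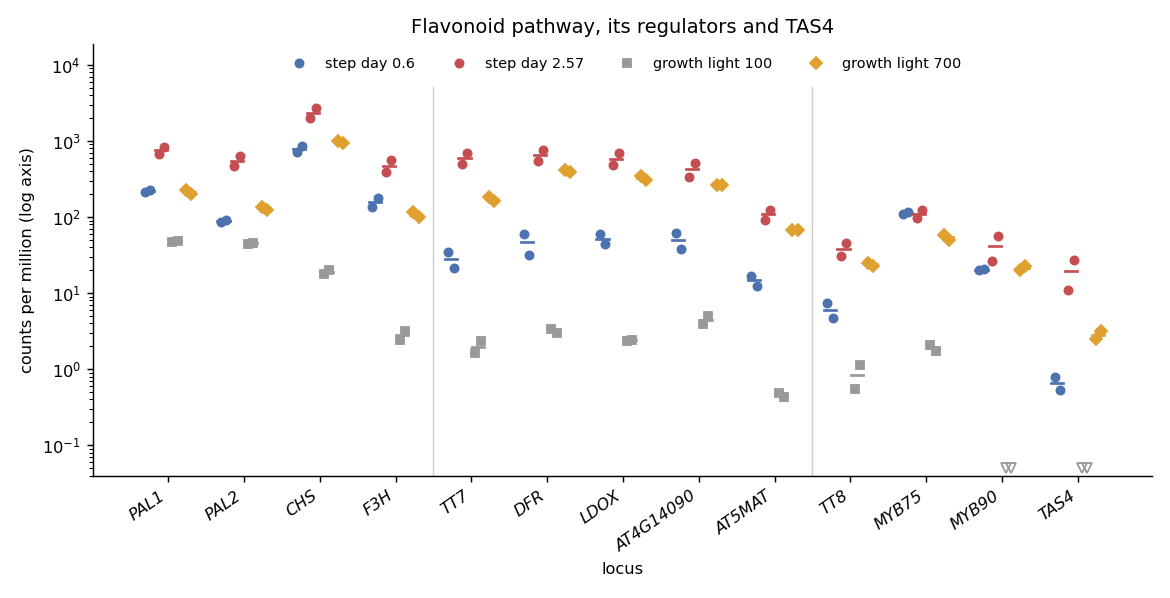
Levels of flavonoid pathway loci (left and middle) and of regulators and TAS4 (right) in CPM on a log axis, for the step groups and for plants grown at light 100 and 700; each symbol is 1 replicate, bars are group means and open triangles are replicates at 0. DFR, LDOX, TT7 and TAS4 rise between the step days while MYB75 overlaps.

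Of 10 tested repressors and small RNA precursors of the pathway 3 rose and 1 fell, with a median log2 change of 0.14. TAS4 (AT3G25795), a non-coding RNA that is cut into small RNAs against the MYB activators, went from 0.788 and 0.536 CPM to 11 and 27.5 CPM, a log2 change of 4.82 ± 0.43 (SE; edgeR quasi-likelihood, adjusted p 6.43e-05). MYBL2 (AT1G71030) and CPC (AT2G46410), small MYB proteins known to repress anthocyanin genes, rose by 1.92 and 2.1, whereas MYB7 (AT2G16720) fell by 0.96 and did not pass without day 2.57 replicate 1. TAS4 is printed because its transcript holds a stretch that also stands in its MYB targets. The windows are 21 bases long, from RefSeq assembly TAIR10.1 on the transcribed strand, and capitals mark bases that differ from TAS4.
TAS4, chr3:9417736-9417756, minus strand: gcctcgacctcgatccttcac
MYB75, chr1:21234021-21234041, minus strand: gcctcgacctcgatccttcac
MYB90, chr1:24765073-24765093, plus strand: gcctcgacctcgatccttcTc
MYB113, chr1:24754286-24754306, plus strand: gcctcgGcctcgatccttcTc

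The window was the one with the fewest differences summed over the 3 MYB genes, and it differed from MYB75 at 0 bases, from MYB90 at 1 and from MYB113 at 2. TAS4 is opened by the microRNA miR828, whose RefSeq sequence is given next with its seed, bases 2 to 8, in capitals, followed by the closest stretch of TAS4 to its reverse complement, where capitals mark the mismatch.
miR828, chr4:13847020-13847041, plus strand: tCTTGCTTaaatgagtattcca
TAS4 site, chr3:9417809-9417830, minus strand: tggaatactcatttGagcaaga

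The TAS4 site differed from the reverse complement of miR828 at 1 of 22 bases. That base, a G, faces base 8 of miR828, a T as printed, which is part of the seed. Only letters were compared, so pairing of these bases was not scored. The precursor MIR828 (AT4G27765) was too low to be tested, with 0 counts in both day 0.6 replicates and 6 and 3 counts in the day 2.57 replicates. TAS4 stood at 0 in both replicates of growth light 100 and at a mean of 2.83 CPM at light 700, so step day 2.57 held more of it than either. Among other loci with large rises, TTG2 (AT2G37260), a WRKY factor of trichomes and seed coat, rose by 2.94, and GSTF6 (AT1G02930), a stress-induced glutathione transferase, went from 164 and 112 CPM to 1050 and 1419 CPM (a copy, AT1G02920, matches it with 92.6% identity). ALMT6 (AT2G17470), a malate channel of the vacuole, rose by 3.08.

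Defensin transcripts included the largest rise among the named loci, and their replicates were uneven. PDF1.3 (AT2G26010), which encodes a small antifungal peptide, stood at 1.36 and 0.929 CPM at day 0.6 and at 88.7 and 25.3 CPM at day 2.57. PDF1.2A (AT5G44420) stood at 18 and 9.82 CPM and then at 290 and 84.1 CPM. At each of the 4 called PDF1 loci replicate 1 of day 2.57 was well above replicate 2, and both were above day 0.6. The log2 changes were 5.61 ± 0.53 (SE) for PDF1.3, 4.94 ± 0.93 for PDF1.2B, 4.89 ± 0.63 for PDF1.2C and 3.74 ± 0.47 for PDF1.2A. Without day 2.57 replicate 1 the change of PDF1.2B was 2.71, and all 4 loci passed in each fit that left out a replicate. The PDF1 loci match each other with 86.5% to 87.2% identity, so counts may be shared among them. At growth light 100 PDF1.3 averaged 138 CPM and PDF1.2A 299 CPM, far above step day 0.6 for both.

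The list of PDF1 defensins and ethylene-jasmonate outputs held 10 tested loci, of which 7 rose and 0 fell, with a median log2 change of 2.12. Besides the 4 PDF1 loci these were HEL (AT3G04720), CHIB (AT3G12500) and ORA59 (AT1G06160), the ERF factor known to activate PDF1.2, with log2 changes of 1.53, 1.31 and 2.7. ORA59 went from 0.504 and 0.143 CPM to 2.45 and 1.95 CPM. Its level in day 0.6 replicate 2 rests on few reads, since 3 counts equal 0.107 CPM there. PDF1.5, ERF1 and ERF2 did not pass, at 0.74, 0.99 and -0.70, and 1 locus of the list passed as lower without day 0.6 replicate 1 or day 2.57 replicate 2. These 6 loci other than the called PDF1 genes were named after their values were seen. With at least 10 counts in every replicate, 6 loci of the list were tested and 5 rose. The list median was 4.07 without day 0.6 replicate 1 and 1.75 without day 0.6 replicate 2. Of 12 jasmonate synthesis genes 3 fell and 0 rose, with a median of -0.22, and of 15 JAZ and MYC genes 5 fell and 0 rose, with a median of -0.37. LOX3 (AT1G17420) and AOC3 (AT3G25780), enzymes of jasmonate synthesis, fell by 0.85 and 0.90, and LOX3 by 0.52 without day 0.6 replicate 1. The repressor genes JAZ1, JAZ5, JAZ6 and JAZ7 were among the falls, with JAZ5 (AT1G17380) at 26.3 and 20.8 CPM against 13.8 and 11.6 CPM. The JAZ and MYC median was -0.58 without day 0.6 replicate 2 and -0.22 without day 0.6 replicate 1. The synthesis median was -0.32 without day 2.57 replicate 1 and -0.14 without day 0.6 replicate 1. The calls of both lists changed with the replicate left out, and without day 0.6 replicate 1 they were not all falls. Of 6 wound and jasmonate output genes 2 fell and 1 rose. VSP2 (AT5G24770), a vegetative storage protein induced by jasmonate, fell by 0.81 with all replicates and did not pass without day 2.57 replicate 2. BAM5 (AT4G15210), a beta-amylase of the same list, rose from 269 and 285 CPM to 559 and 430 CPM, a log2 change of 0.82, and did not pass without day 2.57 replicate 1.

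Of 18 salicylic acid genes tested, 3 fell and 0 rose, with a median log2 change of -0.28. FMO1 (AT1G19250), an enzyme of systemic resistance, stood at 2.21 and 1.21 CPM at day 0.6 and at 0.199 and 0.206 CPM at day 2.57. Its day 2.57 levels rest on few reads, since 3 counts equal 0.0994 and 0.103 CPM in those replicates. ALD1 (AT2G13810) and WRKY54 (AT2G40750) also fell, by 1.71 and 0.64; neither passed without day 0.6 replicate 2 or day 2.57 replicate 1, nor ALD1 without day 2.57 replicate 2. The list median was -0.52 without day 0.6 replicate 2 and 0.0035 without day 0.6 replicate 1, and the falls called changed with the replicate left out. PR1 (AT2G14610), the usual marker of the pathway, stood at 113 and 73.3 CPM and then at 24.5 and 137 CPM. Its day 2.57 replicates enclosed both day 0.6 replicates, and the change of -0.23 ± 0.51 (SE) did not pass. Without day 2.57 replicate 2 it was -1.94 and passed.

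Among clock transcripts, rises were most frequent in the morning genes and falls in the evening genes. LHY (AT1G01060), a morning MYB repressor, stood at 1.54 and 1.39 CPM at day 0.6 and at 6.50 and 6.03 CPM at day 2.57. FKF1 (AT1G68050), a blue-light receptor of the afternoon, stood at 47.8 and 48.4 CPM and then at 7.86 and 7.65 CPM. The replicates were tight at both loci, and the log2 changes were 2.07 ± 0.25 (SE) for LHY and -2.65 ± 0.14 for FKF1. FKF1 has a near-identical copy (AT5G23410, 89.3% identity).

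Of 12 morning MYB and LNK genes tested, 6 rose and 0 fell, with a median log2 change of 0.93. CCA1 (AT2G46830), the close relative of LHY, rose by 1.69, and LNK2 (AT3G54500) and RVE8 (AT3G09600), activators of afternoon genes, by 1.4 and 1.2. Of 17 PRR, evening complex, GI-FKF1 and CDF genes, 6 fell and 2 rose, with 5 rises without day 0.6 replicate 1 and 1 without day 2.57 replicate 1. ELF4 (AT2G40080) and LUX (AT3G46640), which form the evening complex with ELF3, fell by 1.69 and 1.47, and TOC1 (AT5G61380), an evening repressor of CCA1 and LHY, fell from 76.0 and 71.2 CPM to 32.9 and 36.5 CPM. The early PRR9 (AT2G46790), named after its values were seen, rose by 1.07.

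The diurnal groups at light 250 give the direction in which these loci move through the day. The window from day 0.375 to day 0.625 was chosen because it spans the decimal parts of both step labels. Whether those parts are times of day is not stated. From diurnal day 0.375 to day 0.625, LHY went from a mean of 484 CPM to 1.36 CPM and FKF1 from 0.276 to 54.3 CPM. All 14 called clock loci changed in the opposite direction between step day 0.6 and day 2.57, and all 14 passed in the diurnal comparison as well, which shares no sample with the step. Over the 29 tested clock loci the log2 changes of the comparisons had a Pearson r of -0.92, given as a description of loci that depend on one another. The sizes differed, since LHY at step day 2.57, at 6.50 and 6.03 CPM, lay far below its diurnal day 0.375 level. At growth light 100 and 700 FKF1 averaged 39.5 and 37.9 CPM.

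**Figure D3:**
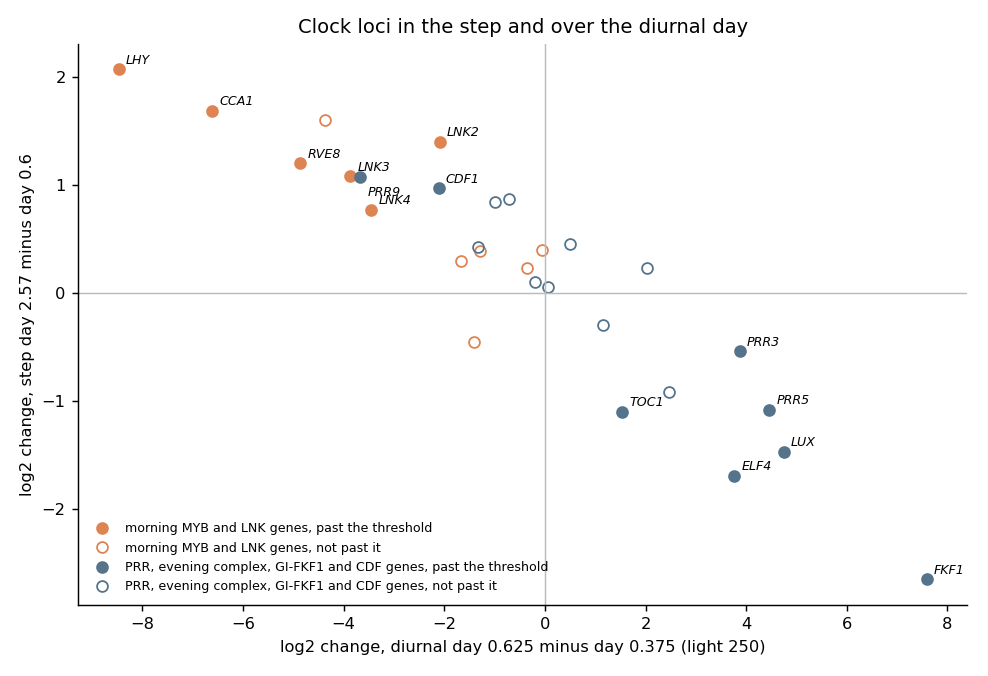
Log2 change of each clock locus from step day 0.6 to day 2.57 (vertical) against its log2 change from diurnal day 0.375 to day 0.625 at light 250 (horizontal), with filled symbols for loci past the threshold in the step comparison. LHY and CCA1 lie at the upper left and FKF1 at the lower right, with the 14 filled symbols in these quadrants.

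COR27 (AT5G42900), a cold- and clock-regulated repressor, and AT4G33980, uncharacterized in RefSeq and on the same list, fell with the evening genes. COR27 stood at 112 and 130 CPM at day 0.6 and at 20.8 and 25.6 CPM at day 2.57, a log2 change of -2.39 ± 0.16 (SE; edgeR quasi-likelihood, adjusted p 1.00e-05). From diurnal day 0.375 to 0.625 its mean went from 3.33 to 93.7 CPM. The promoter of FKF1 is printed because it holds the evening element AAAATATCT, the motif bound by CCA1 and LHY, and the promoter of LHY because it holds a G-box, CACGTG. Each runs from 250 bases before the annotated start to 50 after it, in RefSeq TAIR10.1, on the strand of the gene, with the motif in capitals in either orientation.
FKF1, chr1:25508389-25508688, plus strand: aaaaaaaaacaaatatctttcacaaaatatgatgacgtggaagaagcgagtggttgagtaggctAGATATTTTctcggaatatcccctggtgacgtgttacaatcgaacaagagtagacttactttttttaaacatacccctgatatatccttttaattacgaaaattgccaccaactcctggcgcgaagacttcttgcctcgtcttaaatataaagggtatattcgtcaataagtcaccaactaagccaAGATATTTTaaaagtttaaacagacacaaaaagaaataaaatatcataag
LHY, chr1:37822-38121, minus strand: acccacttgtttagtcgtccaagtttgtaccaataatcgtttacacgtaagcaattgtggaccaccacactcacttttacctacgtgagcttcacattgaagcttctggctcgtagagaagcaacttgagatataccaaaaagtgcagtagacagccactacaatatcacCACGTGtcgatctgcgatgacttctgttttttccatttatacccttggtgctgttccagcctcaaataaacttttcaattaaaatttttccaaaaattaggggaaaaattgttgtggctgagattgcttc

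FKF1 holds 2 evening elements and LHY holds 1 G-box in this window. On both strands, the evening element stood in 84 of 925 promoters of loci lower at day 2.57 (9.08%), in 16 of 641 of loci higher (2.5%), in 613 of 19799 of all loci tested with a promoter (3.10%) and in 2.49% of all promoters. The G-box stood in 14.2% of the higher, 11.9% of the lower and 8.90% of the tested promoters (6.46% of all promoters). Its core ACGTG, which lies inside the G-box and is also the core of abscisic acid response elements, stood in 34.3%, 34.7% and 27.6% (24.6% of all promoters). The CRT/DRE core CCGAC, bound by CBF factors, stood in 12.3% of higher, 22.5% of lower and 16.5% of tested promoters (15.3% of all). These shares describe letters in a window and say nothing of binding.

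**Figure D4:**
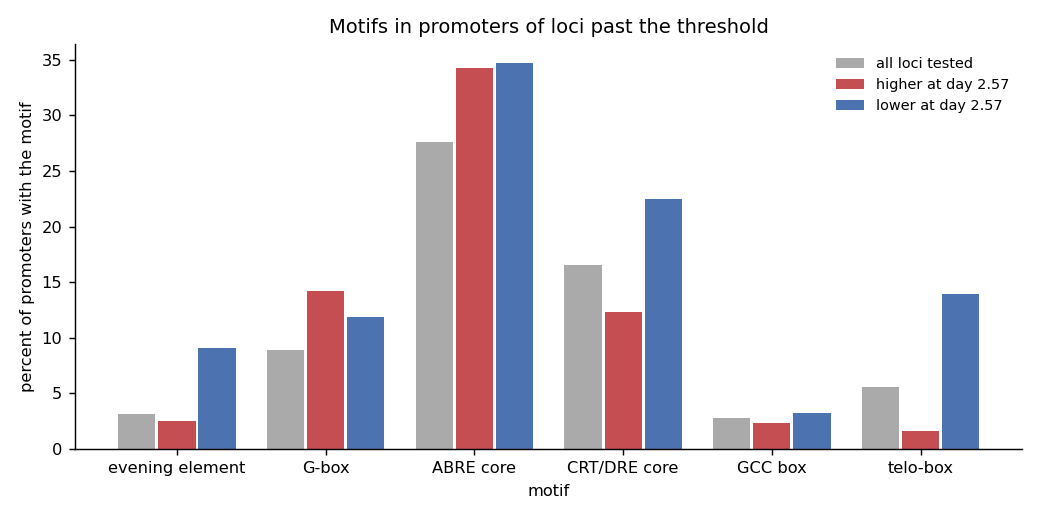
Share of promoters, in percent, that hold each motif on either strand, for all loci tested and for loci higher or lower at day 2.57. The evening element (9.08% against 3.10%) and the telo-box (13.9% against 5.55%) stand in more promoters of lower loci than of all loci tested.

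The GCC box, GCCGCC, bound by ERF factors such as ORA59, stood in 4 of the 12 promoters of the PDF1 list, of which 10 loci were tested. It stood in 2.73% of tested promoters (2.72% of all). Among the called PDF1 loci, PDF1.2A and PDF1.2B held it, whereas PDF1.3 and PDF1.2C did not. The promoter of PDF1.2A is shown with it in capitals.
PDF1.2A, chr5:17907589-17907888, minus strand: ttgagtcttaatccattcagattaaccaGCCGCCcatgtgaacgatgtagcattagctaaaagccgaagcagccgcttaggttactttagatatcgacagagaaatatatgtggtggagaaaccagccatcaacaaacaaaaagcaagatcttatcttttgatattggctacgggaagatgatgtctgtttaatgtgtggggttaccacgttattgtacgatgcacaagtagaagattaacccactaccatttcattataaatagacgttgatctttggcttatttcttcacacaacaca

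Among all loci lower at day 2.57 the GCC box stood in 3.24% of promoters, and among those higher in 2.34%.

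Cold-regulated transcripts fell together. COR15B (AT2G42530), a chloroplast protein of freezing tolerance, stood at 2037 and 2914 CPM at day 0.6 and at 658 and 731 CPM at day 2.57. COR47 (AT1G20440), a dehydrin, stood at 595 and 616 CPM and then at 187 and 198 CPM. The groups did not overlap at either locus, and the log2 changes were -1.85 ± 0.20 and -1.67 ± 0.15 (SE). Of 15 loci tested, 11 fell and 0 rose, with a median log2 change of -1.07, and 9 to 12 fell in the fits that left out a replicate. In the diurnal groups COR47 and COR15B were also lower at day 0.625 than at day 0.375, by 2.44 and 1.4 on the log2 scale, so these loci moved against COR27 through the day but with it in the step.

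Abscisic acid and dehydration genes fell as well, at 8 of 14 loci with 0 rises and a median log2 change of -0.68, and at 5 loci without day 2.57 replicate 1. HAI1 (AT5G59220), a phosphatase that dampens abscisic acid signalling and is induced by it, stood at 49.9 and 39.4 CPM and then at 14.1 and 11.5 CPM, a log2 change of -1.82 ± 0.17 (SE). LEA4-5 (AT5G06760), a late embryogenesis abundant protein, fell by 1.95, and RAB18 (AT5G66400), a dehydrin, by 1.43. RD29B (AT5G52300) stood at 22.9 and 22.5 CPM and then at 6.66 and 1.37 CPM. Its log2 change of -2.51 ± 0.43 went to -4.07 without day 2.57 replicate 1, and it passed in every fit. Of the further large falls, AFP1 (AT1G69260), an ABI5-binding protein, changed by -2.08 and TSPO (AT2G47770), a stress-induced membrane protein, by -2.28. At growth light 700 RAB18 averaged 153 CPM, above both step groups.

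Of 8 tested iron loci 4 rose and 2 fell, but without day 2.57 replicate 2 these were 2 and 1. FER1 (AT5G01600), listed here with the reactive oxygen genes, is a plastid ferritin that stores iron and responds to oxidative stress. It stood at 656 and 797 CPM at day 0.6 and at 214 and 185 CPM at day 2.57. FER3 (AT3G56090) stood at 311 and 407 CPM and then at 131 and 112 CPM. The log2 changes were -1.88 ± 0.17 and -1.58 ± 0.17 (SE), and the groups were well apart. FRO3 (AT1G23020), an iron reductase of mitochondria, rose by 1.23. AT1G47395 and AT1G47400, short proteins on the iron list, stood at 0.0714 to 0.189 CPM at day 0.6 and at 0.696 to 1.54 CPM at day 2.57. In the day 0.6 replicates 3 counts equal 0.0945 and 0.107 CPM. The day 0.6 levels of both loci therefore rest on few reads, and the sizes of their rises are uncertain. AT1G47400 did not pass without day 0.6 replicate 2 or day 2.57 replicate 2, and passed in 6 of the 10 settings that kept all replicates. FSD1 (AT4G25100), iron superoxide dismutase, stood at 103 and 313 CPM and then at 54.6 and 91.6 CPM, and its change of -1.52 became -0.52, not past the threshold, without day 0.6 replicate 2.

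Few oxidative and heat stress markers passed, and those that did were lower. ZAT10 (AT1G27730), a zinc finger repressor, went from 10.4 and 6.75 CPM to 3.45 and 2.37 CPM, and BAP1 (AT3G61190), a singlet oxygen marker, from 3.25 and 2.82 CPM to 0.663 and 1.13 CPM. In all, 3 of 9 reactive oxygen loci (33.3%) and 3 of 21 heat shock and chaperone loci (14.3%) fell. In either list 0 rose, and over all loci tested 4.65% were lower. The list medians were -0.85 and -0.22. The heat shock falls were AT1G53540, BIP3 and HSP17.4, with log2 changes of -1.93, -1.72 and -1.7. The heat shock count was 1 fall without day 0.6 replicate 2, 2 falls without either day 2.57 replicate, 4 falls and 1 rise without day 0.6 replicate 1, and 1 fall on lane 2 alone. HY5 (AT5G11260), the bZIP factor of light signalling, fell from 18.6 and 24.7 CPM to 10.2 and 12 CPM, a log2 change of -0.98 ± 0.17 (SE). MDAR2 (AT5G03630), a monodehydroascorbate reductase, fell from 194 and 204 CPM to 110 and 109 CPM.

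Other light and carbon genes moved singly. Of 18 B-box genes, zinc finger factors of light and clock signalling, 5 rose and 1 fell, with a median log2 change of 0.34, and 3 rose without day 2.57 replicate 1 and 9 without day 0.6 replicate 2. BBX3 (AT3G02380) went from 4.98 and 4.54 CPM to 14.4 and 14.5 CPM, a log2 change of 1.58, whereas BBX22 (AT1G78600) fell by 0.82. SPA3 and SPA4, partners of the COP1 ubiquitin ligase, rose by 0.79 and 0.55, SPA4 not passing without either day 2.57 replicate, and PIF1 (AT2G20180), a phytochrome-interacting factor, rose by 1.08. Among starch genes, BAM3 (AT4G17090), the main amylase of starch breakdown at night, fell from 3048 and 2956 CPM to 1886 and 2049 CPM but did not pass without either day 2.57 replicate, and BAM9 rose by 1.4. CCD4 (AT4G19170), a carotenoid cleavage enzyme, rose from 29.6 and 29.8 CPM to 65.8 and 56.6 CPM, far below its means of 383 and 432 CPM at growth light 100 and 700. CAT2 (AT4G35090), the main leaf catalase, rose by 0.70 but did not pass without either day 2.57 replicate. APR2, SULTR4.2 and ATSDI1, genes of sulfate use, rose by 0.73, 0.86 and 1.09, and were the called loci of 16 tested. APR2 did not pass without either day 2.57 replicate, nor ATSDI1 without day 0.6 replicate 1 or day 2.57 replicate 2, and 1 locus of the list rose without day 2.57 replicate 2, with 2 without day 2.57 replicate 1.

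Several of the largest falls and rises lay outside these groups. AT2G33830, of a family linked to dormancy and auxin, went from 62.6 and 65.6 CPM to 12.4 and 14.1 CPM, and PCR1 (AT1G14880), of a cadmium resistance family, from 72.6 and 51.7 CPM to 11.3 and 13.2 CPM. TPS03 (AT4G16740), a terpene synthase, fell by 2.52. AT5G62360, an invertase or pectin methylesterase inhibitor, AT1G71000, a DnaJ-domain protein, AT2G44240 and AT4G33467 fell by 2.64, 2.55, 2.71 and 2.72. LEA7 (AT1G52690) stood at 9.83 and 16.8 CPM and then at 5.63 and 1.03 CPM, and its change of -2.0 did not pass without day 0.6 replicate 2. GER2 (AT5G39190) and AT5G39160, germin-like loci that match with 99.3% identity, rose by 3.04 and 2.85. DIN11 (AT3G49620), known as dark-inducible, stood at 1.13 and 1.57 CPM and then at 21.4 and 3.36 CPM, so its rise of 3.19 was 1.29 without day 2.57 replicate 1. Of the 131 named loci, 32 overlap a neighbouring annotated gene, whose reads could be counted with theirs. Among them are CHS, F3H, AT4G14090, LNK2, LUX, FKF1, BBX3, COR15B, RAB18, FRO3, LHCB2.3, LHCB4.2 and PSAD2.

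**Figure D5:**
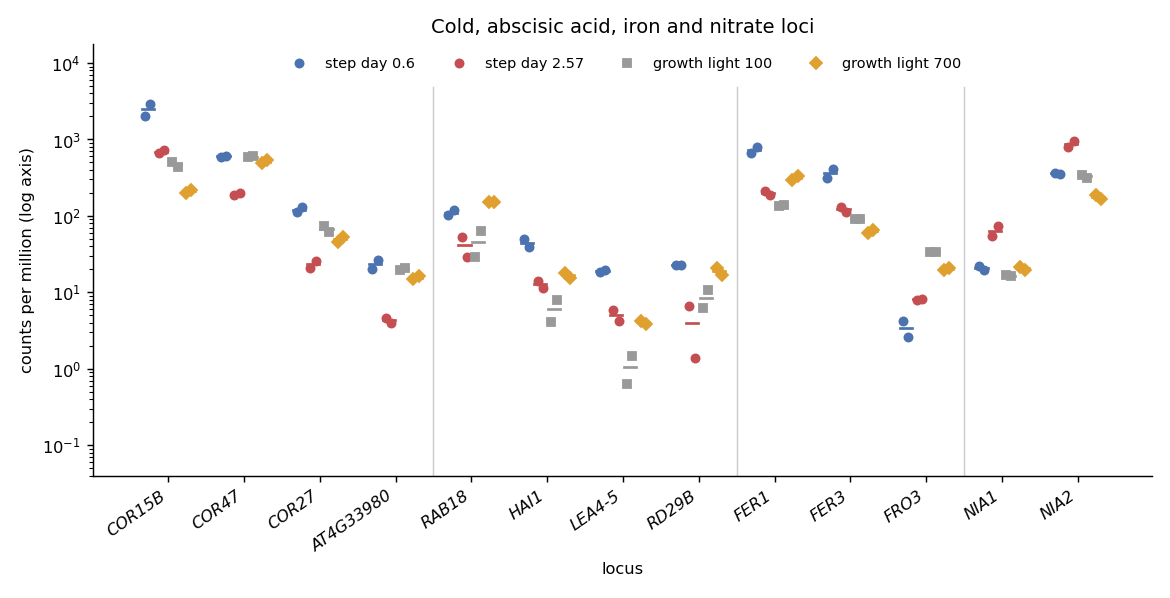
Levels in CPM on a log axis of cold, abscisic acid, iron and nitrate loci, in the order of the vertical lines, for the step groups and for plants grown at light 100 and 700; each symbol is 1 replicate and bars are group means. COR47, HAI1 and FER1 are lower at step day 2.57 than at day 0.6, while FRO3, NIA1 and NIA2 are higher.

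Of 14 nitrate uptake and assimilation genes 3 rose and 0 fell, with a median log2 change of 0.21. NIA1 (AT1G77760), nitrate reductase, stood at 22.3 and 19.8 CPM at day 0.6 and at 54.1 and 74.0 CPM at day 2.57, and NIA2 (AT1G37130), the other nitrate reductase, at 366 and 356 and then at 791 and 953 CPM. The log2 changes were 1.59 ± 0.17 and 1.25 ± 0.16 (SE). NRT1.1 (AT1G12110), a nitrate transporter, rose by 0.62 and did not pass without either day 2.57 replicate. NIA2 averaged 331 CPM at light 100 and 176 CPM at light 700, below the step day 2.57 level.

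Among photosynthesis transcripts, rises were found in the antenna, in chlorophyll synthesis, at ELIP1 and at chloroplast-encoded loci. Over all loci tested 3.29% were higher. Of 21 antenna genes 7 rose and 0 fell, with a median log2 change of 0.39; 4 rose without day 2.57 replicate 1 and 12 without day 0.6 replicate 2. LHCB2.3 (AT3G27690), a protein of the main light-harvesting complex, went from 53.7 and 63.1 CPM to 166 and 113 CPM, and LHCB4.2 (AT3G08940), a linker antenna, from 222 and 272 CPM to 594 and 464 CPM. LHCB2.3 matches another antenna gene with 85.9% identity. Their means stayed under those of growth light 100, at 614 and 2199 CPM. Among 31 nuclear photosystem and electron transport subunits 1 rose (PSAD2, by 0.89), which is 3.23% and near the share over all loci. The Calvin cycle median was 0.22. ELIP1 (AT3G22840), an early light-induced protein, rose from 303 and 452 CPM to 994 and 1471 CPM, a log2 change of 1.69 ± 0.23 (SE), whereas no other of the 9 loci of its list passed. CHLH, CAO and CHLI2, enzymes of chlorophyll synthesis, rose by 0.87, 1.04 and 0.55, and were the called loci of 15 tested. That count ran from 1 (without day 2.57 replicate 1) to 11 (without day 0.6 replicate 2), with 6 without day 0.6 replicate 1 and 2 without day 2.57 replicate 2. CHLH did not pass without day 2.57 replicate 1, nor CHLI2 without either day 2.57 replicate. ZEP (AT5G67030), zeaxanthin epoxidase, rose by 0.77 and did not pass without day 2.57 replicate 2. Chloroplast-encoded loci were higher at 16 of 83 tested, with a median of 0.71, which became 7 loci and 0.39 without day 2.57 replicate 1 and 26 loci and 0.91 without day 2.57 replicate 2. Of 40 mitochondrial loci 2 were lower, a share near the 4.65% lower over all loci tested, with a median of -0.84. DESeq2 called 1 higher and 1 lower. The median was -0.41 over the 24 loci with at least 10 counts in every replicate and -0.33 over the 25 tested on lane 2 alone. It was -0.46 without day 0.6 replicate 2. Without day 2.57 replicate 2 the median was -0.64, and the calls were rises and no longer falls.

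The enzyme in the title of the series showed no change past the threshold. VTC2 (AT4G26850), GDP-L-galactose phosphorylase of ascorbate synthesis, stood at 512 and 537 CPM at day 0.6 and at 624 and 722 CPM at day 2.57. VTC5 (AT5G55120), its paralog, stood at 54.7 and 51.3 and then at 59.2 and 48.2 CPM. The VTC2 replicates did not overlap, but its log2 change of 0.34 ± 0.15 (SE) had an adjusted p of 0.197 by edgeR's quasi-likelihood test, and VTC5 overlapped. Of 18 loci of ascorbate synthesis and recycling, VTC4 (AT3G02870) rose by 0.58 and MDAR2 fell, while the median was 0.02. VTC4 did not pass without either day 2.57 replicate.

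In the growth lists few loci passed, all of them lower. Of 10 expansins, which loosen cell walls, 2 fell and 0 rose, with a median log2 change of -0.13. They were EXPA15 and EXPA16, which fell by 0.75 and 1.25, EXPA15 not passing without day 2.57 replicate 2. Of 12 xyloglucan transglycosylases and 13 plasma membrane aquaporins, 2 fell in each list, with medians of -0.53 and -0.22. Over all loci tested 4.65% were lower, and growth genes were not tested as a group. AIF1 (AT3G05800), a bHLH repressor of growth, fell by 2.05. The telo-box AAACCCTA, known from ribosomal protein promoters, stood in 129 of 925 promoters of lower loci (13.9%), in 10 of 641 of higher loci (1.56%) and in 5.55% of tested promoters (6.17% of all). After that share was seen, nuclear loci were picked by their RefSeq product. Of 50 tested loci with nucleolar or ribosome assembly words in the product, 20 fell and 0 rose (40%), with a median log2 change of -0.45. FIB2 (AT4G25630), fibrillarin, stood at 94.8 and 159 CPM and then at 57.6 and 48.0 CPM, and NUC-L1 (AT1G48920), nucleolin, at 674 and 898 CPM and then at 424 and 386 CPM. The count of falls was 10 to 28 in the fits that left out a replicate. Of 305 ribosomal protein loci 27 fell and 0 rose (8.85%, beside 4.65% lower over all loci tested), with a median of -0.37 and 258 loci below 0. The count of falls was 222 without day 0.6 replicate 1 and 7 without day 2.57 replicate 2. Without day 0.6 replicate 2 there were 13 falls and 25 rises, so this count rests on single replicates.

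Among the loci called in the step comparison, 929 of the 1570 also tested by growth light passed between plants grown at light 700 and at light 100, a comparison that calls 40.0% of its loci (19.7% higher, 20.3% lower) and shares no sample with the step. These are 59.2% of the step calls and 11.5% of the growth light calls. The direction was the same at 534 loci and opposite at 395. Pearson r between the log2 changes was 0.11 over the 19851 loci tested in both and 0.25 over the called loci, a description across loci that depend on each other. With diurnal day 0.625 against day 0.375, which calls 41.5% of its loci (19.9% higher, 21.6% lower), 1057 were shared (67.0% of step and 12.4% of diurnal calls), 746 in the same direction, of which 538 were lower in both. The 14 called clock loci belong to the other 311, which went in opposite directions. NIA2, LHCB2.3, LHCB4.2 and PDF1.3 rose between the step days and were lower at growth light 700 than at light 100, whereas RAB18, LEA4-5, HAI1 and FER1 fell and were higher at light 700.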

How the data were processed

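Leaf RNA-seq reads were deposited by the authors as whole-number counts, with 1 column for each lane and 1 row for each transcript (the deposited tables). The submitters' processing notes name Bowtie2 and TAIR10; the counting tool, the annotation and the use of strand are not given in the sources used here. Counts were summed over lanes and over transcripts to 33602 loci, of which 32835 matched RefSeq TAIR10.1, the source of symbols, coordinates and sequences. edgeR 4.0.16 in R 4.3.3 was run with TMM scaling, filterByExpr and quasi-likelihood F tests, with p-values adjusted across the loci of a fit (Benjamini-Hochberg) and called under 0.05. The step fit used the 4 step replicates; the growth light and diurnal fits used all groups of their sets. SEs are the log2 change over the root of F. Levels are CPM under one TMM scaling of 24 replicates. In the step replicates 3 counts equal 0.0945 to 0.107 CPM, a depth limit that covers counting error only. The tests were also run on simulated counts, whose spread depended only on the level of a locus. Those counts lack the uneven replicates and mostly even small counts of these data, so they cannot show how the tests behave here.

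The members, lists and tests were chosen with earlier results of these data known. The loci named are the 15 largest rises and 15 largest falls (mean log2 CPM at least 2, separated replicates), at most 4 called loci with the largest change per list, the best known member, and VTC2 and VTC5; other loci are marked in the text. Copies were sought with blastn 2.17.0 (at least 85% identity over 100 bases): 24 of 131 named loci have one and 32 overlap another gene's exons. Motifs and product words were added after the data were seen. Alternatives were RLE and total-count scaling, DESeq2 1.42.0, filters, halved counts (70.4% of counts from 1 to 10 are even), single lanes, a replicate block, a shared spread and leaving out each replicate.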

Additional observations from a re-analysis of the deposited data

How the results depend on the processing

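The 1586 loci past the threshold in the step comparison became 2523 with no filter beyond 1 read and 3137 when the 4 groups of the step table shared the spread, of which 50.2% were higher against 41.4%. Leaving out each replicate gave 844 to 4006. Total-count scaling gave 1455 loci, 34.8% of them higher. RLE factors, DESeq2, at least 10 counts, halved counts and single lanes gave 1147 to 1700. The replicate numbers did not pair the samples (r = 0.0629 over 19998 loci between the groups' replicate differences), and a replicate block gave 2190 loci. The growth light count of 8267 and the diurnal count of 8696 stayed within 1.5 times under every alternative run, but 73.2% of 9822 growth light loci were higher under total-count scaling against 49.2%, with the median of all loci shifted by 0.195. Of the 127 named loci past the threshold, 0 turned in sign, and not all passed without a replicate. Leaving out a replicate could hardly turn a sign, because the replicates of the groups did not overlap at any called locus. The 0 is therefore no check of these loci. The log2 change of VTC5, 0.0033, was -0.03 with total-count scaling, -0.00093 with no filter, -0.0028 with at least 10 counts, -0.0041 with halved counts, -0.07 with lane 1, -0.0035 with the replicate block, and -0.16 to 0.15 without a replicate. MYB75 ran from -0.23 to 0.09 and PR1 from -1.94 to 0.52 without a replicate, PR1 at 0.12 without day 0.6 replicate 1. The cause was not tested. VTC2, not called with the main spread, passed when the 4 groups shared it. With 2 replicates a group, the spread between pools limits what small changes can be called.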
